A study of Arabidopsis thaliana with 4 samples.

Results

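The AP2-like genes that carry a site for the microRNA miR172 form a small family of transcription factors in Arabidopsis thaliana. They were taken by locus as AP2, TOE1, TOE2, TOE3, SMZ and SNZ, 6 genes of the 37869 loci in each deposited table, and all 6 were found. Seedlings of 2 genotypes were compared at 14 days. Col-LUC is the background line named in the genotype label, and tho2-8 is a mutant line named for THO2, a subunit of the THO complex, which couples transcription to mRNA packaging and export. Each genotype had 2 libraries, made from whole plants raised on soil under 16 hours of light and 8 hours of dark. The genotype label gives Col-LUC for all 4 libraries, so the line was read from the titles. The nature of the tho2-8 allele and the meaning of LUC in the line name are not stated in those labels. The labels do not say whether replicates were grown separately, and the p-values then reflect only how far these libraries spread, which may be technical.

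Proteins of this family bind DNA through AP2 domains and act mostly as repressors. In Arabidopsis they delay the change from juvenile to adult growth and from leaves to flowers, and miR172, which accumulates with age, limits them both by cutting their mRNA and by blocking its translation. An mRNA level therefore does not report the protein level. The THO complex is also known to be needed for normal amounts of several small RNAs in this plant. The comparison asked whether messages of this microRNA's targets differ between the mutant and its background line. The MIR172 loci themselves are not analysed here.

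The mature microRNAs are shown first because their pairing defines the family. They were read from the RefSeq annotation of TAIR10.1 and carry the same seed, bases 2 to 8 from the 5′ end, which is given in capitals.
miR172a and miR172b: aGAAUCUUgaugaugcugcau
miR172c and miR172d: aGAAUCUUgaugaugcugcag
miR172e: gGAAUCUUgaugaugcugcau
The 3 forms share one seed and differ from each other only at their end bases.

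The matching sites of the 6 messages are given next, 5′ to 3′ as RNA, because they show how alike the targets are. Capitals mark bases that do not form a Watson-Crick pair with the closest of the 3 forms.
AP2 (chr4:17403019-17403039, plus strand): cugcagcaucaucaGgauucu
TOE1 (chr2:12226233-12226253, minus strand): cAgcagcaucaucaGgauucu
TOE2 (chr5:24210889-24210909, plus strand): augcagcaucaucaGgauucu
TOE3 (chr5:26802175-26802195, minus strand): UGgcagcaucaucaGgauucu
SMZ (chr3:20373774-20373794, minus strand): UugcagcaucaucaGgauucc
SNZ (chr2:16389066-16389086, minus strand): UugUagcaucaucaGgauucc
Each site is 21 bases long, and the coordinates are those of TAIR10.1.

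Every one of these 6 sites had the change A7G, where the first letter is the base that would pair, the number counts from the 5′ end of the microRNA and the last letter is the base in the message. The G can still form a G:U pair. AP2 and TOE2 had no other change. TOE1 also had U20A and SMZ A21U. TOE3 had U20G and C21U, counted against miR172c and miR172d, although all forms but miR172e matched it equally well. SNZ had C18U and A21U. Apart from A7G, the changes in these 6 sites thus lay between positions 18 and 21, at the end of the microRNA away from its seed.

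The site search also set the family against the rest of the annotation. Among 31346 genes with 52059 annotated mRNAs, 8 genes had a site with up to 3 mismatches, and all 6 family members were among them. The other 2 were AT5G12900 and BZIP34, each with 3 mismatches and without A7G. The 10 other AP2-lineage genes examined, such as ANT and the PLETHORA genes, had no match at this limit. A match is a description of these letters and not evidence of cutting.

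Among the mRNA models that carry the site, that with the longest coding sequence was taken for each gene. In all 6 genes the site lay inside the coding sequence, near its end. It ended 56 nt before the end of the coding sequence in TOE3, SMZ and SNZ, 65 nt before it in TOE1, 101 nt in AP2 and 158 nt in TOE2. Exons 2, 3 and 4 were 26, 31 and 88 nt long in each of the 6 genes, so the family shares this run of small exons. Not every annotated mRNA carried the site: it was present in 1 of 4 models of TOE3 and in 1 of 2 models of SMZ. In TOE1 and TOE2 all 6 models held it, with 3 of 6 placing it in the coding sequence. The deposited values count whole loci, so models with and without the site cannot be told apart.

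**Figure D1:**
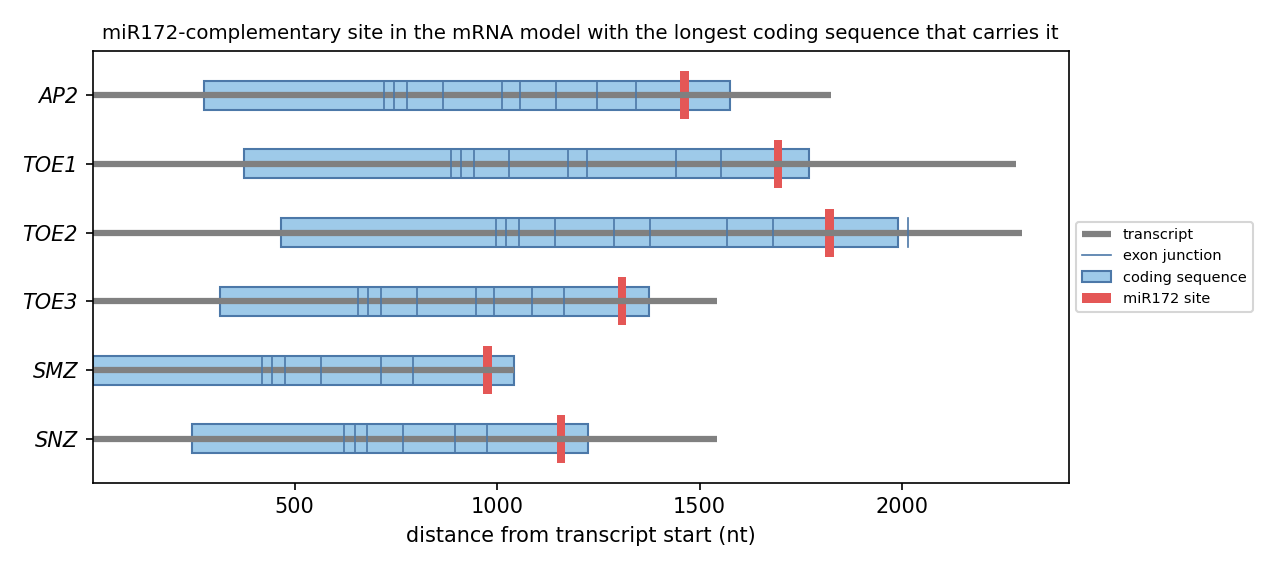
Position of the miR172-complementary site (red) in the 6 mRNA models, in nucleotides from the transcript start, with the coding sequence in blue and exon junctions as lines. The site lies near the end of the coding sequence in every model, from 56 to 158 nt before its end.

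Libraries held between 17119534 and 17877941 counts, and 3 counts corresponded to between 0.165 and 0.177 CPM (counts scaled to library size by TMM). THO2 mRNA measured 82.1 and 84.6 CPM in Col-LUC against 109 and 100 CPM in tho2-8 (log2 fold change 0.33 ± 0.15 SE), which does not check the labels without knowledge of the allele. Green leaf markers were abundant in all 4 libraries. Of these 3 genes 1 was higher in tho2-8 at an unadjusted p under 0.05 by edgeR, where 8.4% of all tested genes were. Neither edgeR nor DESeq2 called any of them at an adjusted p under 0.05. Root markers summed to 53.8 and 31.6 CPM in Col-LUC and to 25.8 and 13.5 CPM in tho2-8, and 3 of 6 were lower at an unadjusted p under 0.05, where 7.18% of all tested genes were. The genotypes did not overlap for 4 of these 6, all lower, where 22.8% of all tested genes were apart and lower. DESeq2 called CASP1, a gene of the root endodermis, lower (adjusted p = 0.0411). It called 290 of the 21109 genes it adjusted lower. Floral organ markers, 6 genes, summed to 11.4 and 38.9 CPM in Col-LUC and to 26.4 and 18.4 CPM in tho2-8. Of the shoot meristem markers CLV3 had 0 counts in every library and WUS had at most 3. In whole seedlings, fewer cells of a type and less RNA per cell cannot be told apart.

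Over all 20971 tested genes, 2 were called by edgeR's quasi-likelihood test (Benjamini-Hochberg adjusted p under 0.05), or 0.00954%. Of the 6 family members, all of which passed the filter on low counts, 0 were called. DESeq2 also called 0 of the 6, against 2.65% of the genes it adjusted. At an unadjusted p under 0.05 edgeR gave 1 member, TOE3, against 15.6% of all tested genes. The median log2 fold change of the 6 was 0.16, and that of all tested genes was 0.01. By CPM the tho2-8 libraries lay above both Col-LUC libraries for TOE1 and TOE3 and below both for AP2. They lay among the Col-LUC libraries for SMZ and SNZ, and overlapped them for TOE2, where tho2-8 replicate 2 was above both. Groups did not overlap for 48.5% of all tested genes, so 3 of 6 is near the background.

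AP2 (AT4G36920), on the plus strand of chromosome 4 between 17400610 and 17403469, specifies sepals and petals, holds back the floral gene AGAMOUS and limits seed size. Its mRNA measured 51.5 and 52.1 CPM in Col-LUC against 42.2 and 49.6 CPM in tho2-8. By CPM the mutant libraries were both below Col-LUC, and tho2-8 replicate 2 was close to it. Its log2 fold change of -0.17 ± 0.15 (SE, n = 2 per genotype) had an edgeR adjusted p of 0.618. The 95% interval of the difference ran from -0.53 to 0.18 on the log2 scale, a ratio of 0.692 to 1.14. AP2 was the member with the least spread in Col-LUC, where the higher library was 1.01 times the lower.

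TOE1 (AT2G28550, listed as RAP2.7 in the annotation), on the minus strand of chromosome 2 between 12225656 and 12228624, represses flowering and was found as a target of an overexpressed MIR172 gene. It measured 88.7 and 99 CPM in Col-LUC against 103 and 116 CPM in tho2-8. Both mutant libraries were higher, by a gap smaller than the distance between replicates. On the log2 scale the change of 0.22 ± 0.16 (SE) had an edgeR adjusted p of 0.528 and an interval of -0.15 to 0.59.

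TOE2 (AT5G60120), on the plus strand of chromosome 5 between 24207689 and 24211743, acts alongside TOE1 in delaying flowering and the adult phase. It measured 36.4 and 32.6 CPM in Col-LUC against 34.2 and 50.1 CPM in tho2-8. Only tho2-8 replicate 2 was high, and replicate 1 lay between the Col-LUC libraries. Its log2 fold change of 0.29 ± 0.21 (SE) had an edgeR adjusted p of 0.545 and an interval of -0.21 to 0.79. Without tho2-8 replicate 2 the value was -0.0044, and without tho2-8 replicate 1 it was 0.51, each resting on 1 mutant library. TOE2 was not called under any alternative. The meristem genes STM and KNAT1, both homeobox factors that maintain the shoot apex, were high in the same library: STM stood at 16.8 and 41.3 CPM in the tho2-8 replicates and KNAT1 at 39.7 and 108 CPM. Without tho2-8 replicate 1, the edgeR log2 fold change of KNAT1 was 1.02, a value that rests on the 1 high mutant library. All 4 shoot meristem markers summed to 78.7 and 74 CPM in Col-LUC and to 56.5 and 149 CPM in tho2-8. Their part in the level of TOE2 was not tested.

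TOE3 (AT5G67180), on the minus strand of chromosome 5 between 26801949 and 26804271, represses AGAMOUS in floral patterning. It had the largest log2 fold change of the 6. Its counts were 79 and 88 in Col-LUC and 150 and 141 in tho2-8, which correspond to 4.53 and 5.2 CPM and to 8.39 and 7.75 CPM. Both mutant libraries were higher, and the replicates of each genotype were close together. Exact Poisson 95% intervals, which cover counting error only, reached 6.4 CPM at most in Col-LUC and began at 6.52 CPM in tho2-8. The log2 fold change was 0.73 ± 0.28 (SE), a ratio of 1.66 with an interval of 1.05 to 2.62. The unadjusted p was 0.0346 and the adjusted p 0.287 by edgeR, and DESeq2 gave an adjusted p of 0.461, so the change was not called. In absolute size it exceeded that of 87.6% of tested genes or equalled it. With 1 library left out, the log2 fold change ran from 0.63 to 0.83. The final 119 bp of the TOE3 locus overlap AT5G67170 on the opposite strand. That gene measured 15.4 and 17.5 CPM in Col-LUC against 14.4 and 18.9 CPM in tho2-8, with a log2 fold change of 0.02 ± 0.22.

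SMZ (AT3G54990), on the minus strand of chromosome 3 between 20373718 and 20376522, represses flowering by binding the florigen gene FT. It was the least counted member, with 43 and 71 counts in Col-LUC and 49 and 68.5 in tho2-8. These are 2.46 and 4.19 CPM and 2.74 and 3.74 CPM, so each genotype had a low and a high library. On the log2 scale the difference was -0.04 ± 0.42 (SE), at an edgeR adjusted p of 0.977. The interval, -1.04 to 0.96, allows a change of either sign, and the direction turned with the scaling and with the library left out. SMZ overlaps AT3G54980 on the opposite strand by 544 bp, and that gene stood between 12.5 and 18.7 CPM, so reads of the pair are uncertain where strand was not used.

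SNZ (AT2G39250), on the minus strand of chromosome 2 between 16388691 and 16391176, is the closest relative of SMZ and delays flowering when overexpressed. It measured 5.27 and 9.51 CPM in Col-LUC against 8.55 and 7.2 CPM in tho2-8. The Col-LUC libraries enclosed both mutant libraries. Their Poisson intervals, 4.25 to 6.47 and 8.09 to 11.1 CPM, did not overlap, so the Col-LUC replicates differed by more than counting error. Its log2 fold change of 0.09 ± 0.34 (SE) had an edgeR adjusted p of 0.925 and an interval of -0.72 to 0.91. Without Col-LUC replicate 1 the value was -0.27, and without tho2-8 replicate 1 it was -0.06. The library lowest in SNZ and SMZ, Col-LUC replicate 1, was also the lowest in summed floral organ markers and the highest in summed root markers. SMZ was nearly as low in tho2-8 replicate 1 (2.74 CPM), where the floral sum was 26.4 CPM against 18.4 CPM in tho2-8 replicate 2. The part of those markers in these levels was not tested.

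**Figure D2:**
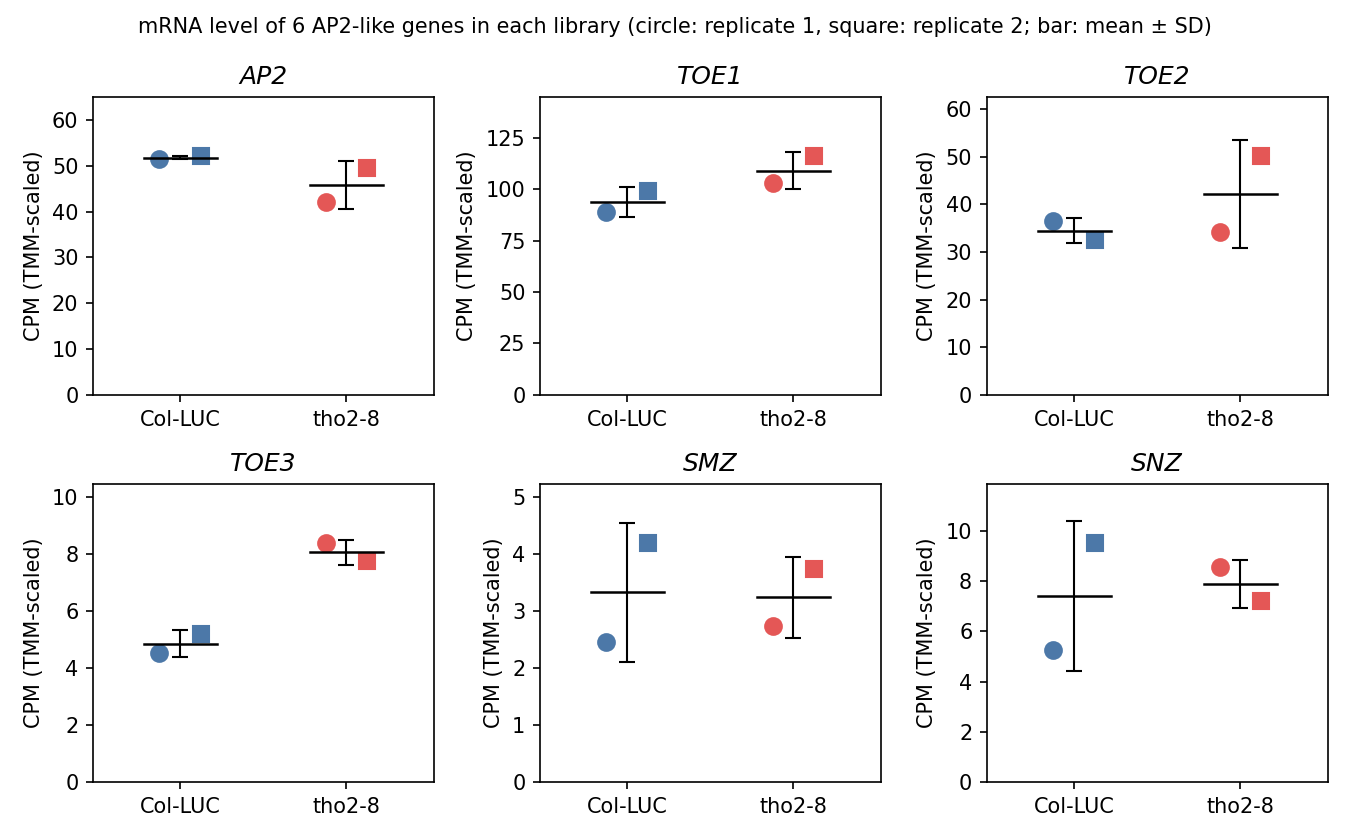
TMM-scaled CPM of the 6 genes in each library, with the mean and SD of each genotype (n = 2) as bars; vertical axes start at 0 and differ between panels. TOE3 lies at 4.53 and 5.2 in Col-LUC against 8.39 and 7.75 in tho2-8, while SNZ and SMZ spread more between replicates than between genotypes.

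**Figure D3:**
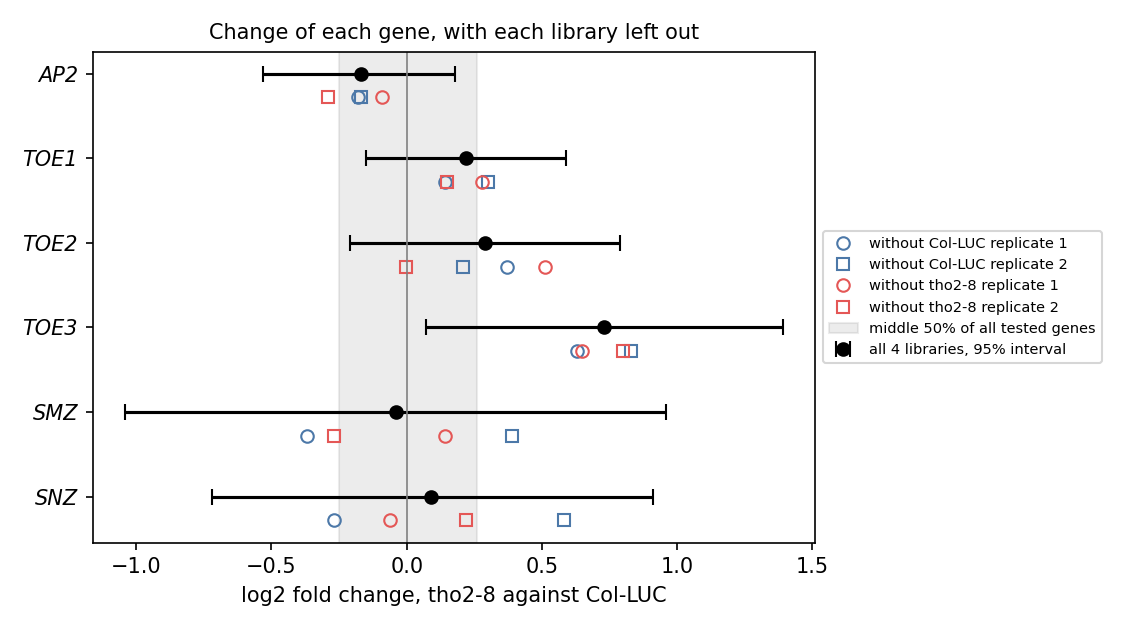
Log2 fold change of each gene with its 95% interval (black) and the value with each library left out (open symbols); the grey band spans -0.25 to 0.26, the middle of all tested genes. TOE3 stays between 0.63 and 0.83, and SMZ and SNZ take either sign.

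Levels of different genes were compared per length, as TPM, counts over annotated exon length scaled to a common sum. TOE1 was the most abundant, at 58.4 and 62.2 TPM in Col-LUC and 68.7 and 77.7 TPM in tho2-8. AP2 followed with 37.1 to 44.8 TPM and TOE2 with 18.1 to 29.7 TPM over the 4 libraries. AP2 stood at 44.8 and 43.2 TPM in Col-LUC against 37.1 and 44 TPM in tho2-8, so the genotypes overlapped on this scale. SNZ with 5.47 to 9.39 TPM, TOE3 with 4.45 to 8.32 TPM and SMZ with 3.99 to 6.47 TPM stood lowest. The ranges of TOE1, AP2, TOE2 and SNZ over the 4 libraries were apart, in that order. Those of SNZ and TOE3, and those of TOE3 and SMZ, overlapped, and their order changed between libraries. The mean TPM of TOE1 was at the 84.2 percentile of tested genes, that of AP2 at 73.4 and that of SMZ at 20.3.

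The share of each gene in the summed TPM of the family is unaffected by the scaling between libraries. AP2 made up 32.4% and 30% of the pool in Col-LUC and 25.1% and 25.4% in tho2-8. TOE3 made up 3.21% and 3.37% in Col-LUC and 5.63% and 4.48% in tho2-8, and TOE1 42.2% and 43.1% against 46.5% and 44.9%. For AP2 both mutant libraries were lower, and for TOE1 and TOE3 both were higher. A share also moves with the levels of the other genes. In tho2-8 replicate 2 AP2 itself stood at 44 TPM, between the Col-LUC libraries. The summed TPM there was 173, against 138 and 144 in Col-LUC. The exact two-sided permutation p over libraries was 0.333 for each of these 3 genes, the smallest that 2 against 2 libraries allow. TOE3 TPM per AP2 TPM was 0.0992 and 0.113 in Col-LUC and 0.224 and 0.176 in tho2-8. The shares of TOE2, SMZ and SNZ overlapped between the genotypes.

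**Figure D4:**
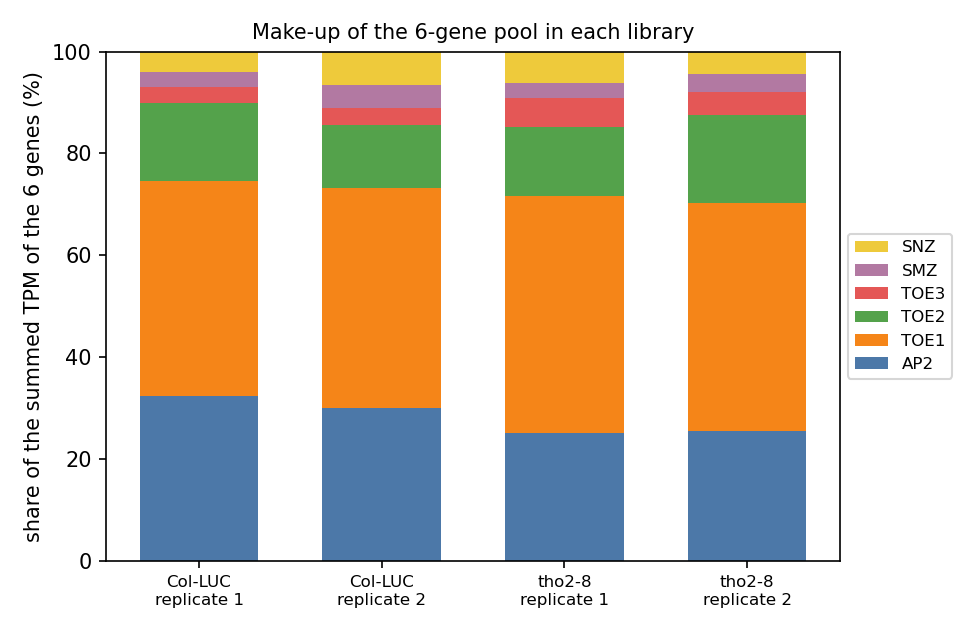
Share of each gene in the summed TPM of the 6 genes, in percent, 1 bar per library. AP2 is 32.4% and 30% of the pool in the Col-LUC bars and 25.1% and 25.4% in the tho2-8 bars, and TOE1 is the largest part of every bar. A share also falls when the other genes rise.

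Genes upstream of miR172 were measured in the same libraries. SPL9 and SPL10 encode factors that activate MIR172 genes, and SVP encodes a MADS-box repressor of them. Of the 3 tested regulators 0 were called by edgeR or DESeq2, and 2 were higher at an unadjusted p under 0.05, where 8.4% of all tested genes were. SPL10 measured 27.2 and 28.9 CPM in Col-LUC against 39.2 and 37.1 CPM in tho2-8 (log2 fold change 0.45 ± 0.15 SE, adjusted p = 0.244 by edgeR). SVP measured 76.6 and 90 CPM against 108 and 132 CPM (0.52 ± 0.18, adjusted p = 0.244 by edgeR). SPL9 had a log2 fold change of 0.29 ± 0.19. All 3 were thus above Col-LUC in both mutant libraries, an activator and a repressor alike, where 25.7% of all tested genes were. GI, a clock protein that raises miR172, had 4 and 2 counts in Col-LUC and 10 and 15 in tho2-8, and SPL15 had 0 in every library, so neither was tested. All 1793 bp of the SPL15 locus lie under AT3G57910 on the opposite strand, which measured 7.05 to 11.4 CPM, so the 0 is uncertain and does not show that SPL15 was silent. The part of this overlap in the 0 was not tested.

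Genes of the machinery that makes and loads microRNAs were tested as well. Of these 6 genes 0 were called by either tool and 0 had an unadjusted p under 0.05, with a median log2 fold change of -0.06. DCL1, which cuts microRNA precursors, had a log2 fold change of -0.10 ± 0.16. Its partners HYL1 and SE stood at 0.09 ± 0.21 and -0.13 ± 0.14. HEN1, which methylates microRNAs, stood at 0.32 ± 0.20, the export factor HST at -0.06 ± 0.15 and the effector AGO1 at -0.05 ± 0.17.

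AP2 and TOE1 recruit corepressors of the TOPLESS family, which work with the histone deacetylase HDA19. Of these 6 genes 0 were called by either tool and 0 had an unadjusted p under 0.05. TPL had a log2 fold change of -0.32 ± 0.20, TPR1 of -0.16 ± 0.15, TPR3 of -0.20 ± 0.16 and TPR4 of -0.17 ± 0.15. These 4 were lower than Col-LUC in both mutant libraries, where 22.8% of all tested genes were. TPR2 stood at -0.08 ± 0.15 and HDA19 at 0.09 ± 0.16.

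The RAV proteins TEM1 and TEM2, which join an AP2 to a B3 domain and repress FT, and their relative RAV1 were higher in both mutant libraries. TEM1 measured 50.6 and 71.3 CPM in Col-LUC against 114 and 111 CPM in tho2-8. TEM2 measured 52.7 and 71.3 CPM against 111 and 134 CPM, and RAV1 35.5 and 34.3 CPM against 47.2 and 62 CPM. For none of the 3 did the genotypes overlap, and 25.7% of all tested genes were likewise apart and higher. The log2 fold changes were 0.88 ± 0.19, 0.98 ± 0.20 and 0.64 ± 0.18. edgeR called none of the 3 (adjusted p = 0.145, 0.131 and 0.191), and all 3 passed an unadjusted p of 0.05, where 8.4% of all tested genes were higher. DESeq2 called TEM1 (adjusted p = 0.0124) and TEM2 (adjusted p = 0.00355) higher, where it called 1.28% of genes higher. The RAV list was chosen with earlier results of these data known, so setting it beside these shares is a description only. These genes carry no site with up to 3 mismatches. Without tho2-8 replicate 1 the edgeR log2 fold change of TEM2 was 1.09, resting on 1 mutant library. The replicate numbers were also crossed as a block, an alternative chosen after seeing the data. There edgeR called TEM1 (adjusted p = 0.0312) and TEM2 (adjusted p = 0.0361). That fit called 537 of 20971 tested genes, against 2 without a block.

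Among genes reported downstream of the TOE proteins, FLS2, the flagellin receptor that TOE1 and TOE2 repress, measured 31.4 and 42.5 CPM in Col-LUC against 61 and 88.3 CPM in tho2-8. Both mutant libraries were higher, as for 25.7% of all tested genes. Its log2 fold change was 1.02 ± 0.23, and 1.23 by edgeR without tho2-8 replicate 1. The adjusted p was 0.156 by edgeR and 0.0104 by DESeq2, which called it higher. DESeq2 called 1.28% of the genes it adjusted higher. The other 2 genes of the list were not called: KAN1, a leaf polarity factor, stood at 0.20 ± 0.20 and GL1, a trichome regulator, at 0.15 ± 1.14 with 1 to 20 counts per library.

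Of 14 flowering genes listed 11 were tested, 0 were called by either tool and 1 was lower at an unadjusted p under 0.05, a share near the 7.18% of all tested genes. That gene was AP1, a floral meristem identity factor, which measured 2.01 and 10.6 CPM in Col-LUC against 2.18 and 1.04 CPM in tho2-8. The genotypes overlapped, and the single high library was Col-LUC replicate 2, which also had the highest sum of floral organ markers. SOC1, a flowering integrator that AP2-like repressors hold down, had a log2 fold change of 0.33 ± 0.18, SPL5 of 1.27 ± 0.64 and the repressor FLC of 1.10 ± 0.68. SPL5 had 16 and 14 counts in Col-LUC and 57 and 19 in tho2-8, so only tho2-8 replicate 1 was high. Its locus overlaps AT3G15260 on the opposite strand by 1959 bp. FLC had 4 and 10 counts in Col-LUC and 13 and 19 in tho2-8. The 3 untested genes had few counts: FT had 3 and 7 in Col-LUC and 0 in both tho2-8 libraries, TSF had 1 to 6 and SPL3 had 0 to 2.

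The AP2-lineage relatives without a miR172 site gave a comparison within the wider family. Of 10 tested relatives 0 were called by either tool and 0 had an unadjusted p under 0.05, with a median log2 fold change of 0.21 beside 0.16 for the 6 site-bearing genes. AIL5 had a log2 fold change of 0.62 ± 0.33, WRI3 of 0.44 ± 0.37 and WRI4, a regulator of wax synthesis, of 0.21 ± 0.15. ANT, which promotes organ growth, measured 37.5 and 38 CPM in Col-LUC against 35.7 and 64.4 CPM in tho2-8, so like TOE2 it was high in tho2-8 replicate 2 alone.

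**Figure D5:**
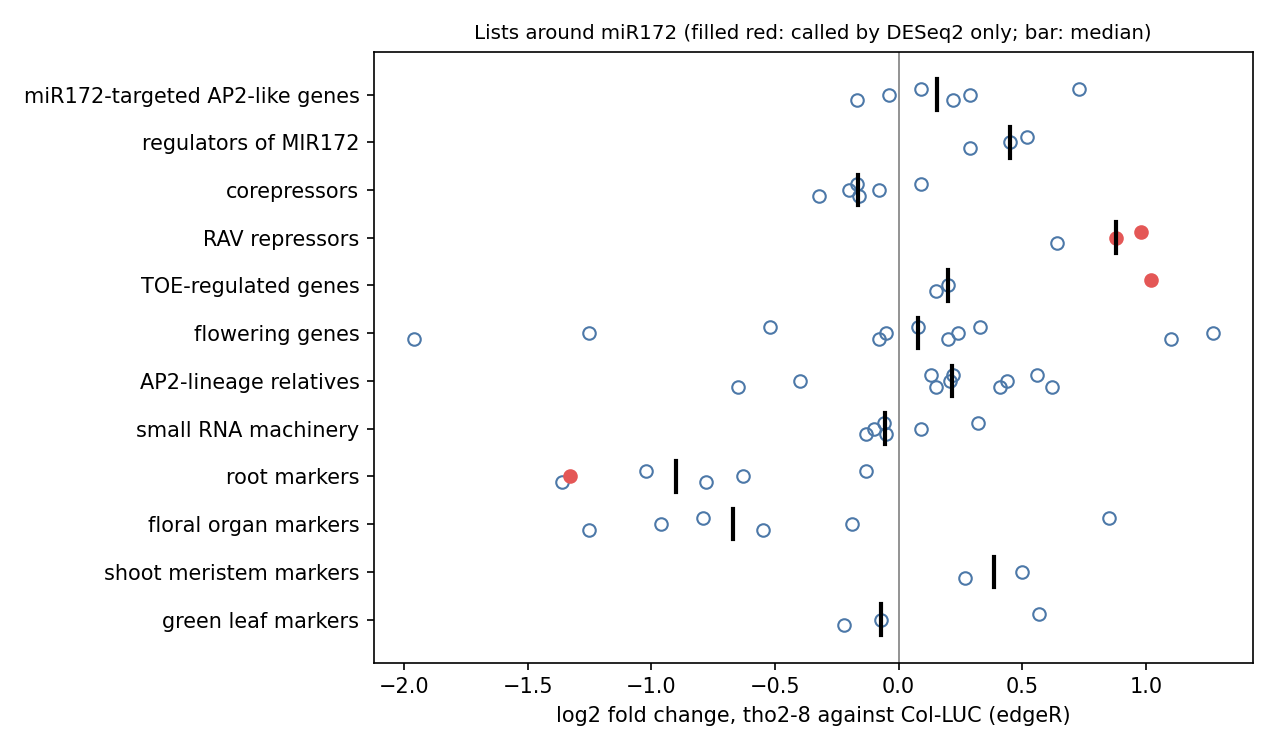
Log2 fold change of every tested gene in the lists around miR172 and in the marker lists; each circle is 1 gene, bars are list medians and filled circles had an adjusted p under 0.05 by DESeq2 and not by edgeR. The 6 site-bearing genes have a median of 0.16 and the 3 RAV genes of 0.88. Lists were chosen with earlier results of these data known.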

How the data were processed

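Messenger RNA of 4 libraries was sequenced with a stranded kit, per the labels' protocols. The authors deposited unnormalised estimated counts per locus, in a table for each library. The submitters' processing notes name TAIR10, DESeq2 1.24.0, featureCounts 1.6.3, HISAT2 2.1.0 and Trimmomatic. Neither these notes nor the tables state how strand and shared reads were handled. Values of overlapping genes (TOE3, SMZ, SPL15, SPL3, TPL, TPR3, TPR4, SPL5, FLC, WRI3, WRI4, DCL1, HYL1, FLS2, KAN1 and CASP1) are therefore uncertain. The same holds for CO, AIL6, EXPA7, SEP1 and RCA, which also overlap other loci and enter the list counts or marker sums. Between 2.06% and 2.15% of loci were fractional, and values were rounded to whole numbers; the design had assumed whole counts. The 296 organelle loci held 0 counts. No 2 tables were identical, and replicates differed beyond sampling noise (chi-square per gene 25.8 and 23.4).

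Genes kept by filterByExpr were normalised by TMM, and glmQLFit with glmQLFTest was applied (edgeR 4.0.16, limma 3.58.1, R 4.3.3), genotype as the only term, adjusted p under 0.05. SE and intervals came from the F statistic; the 95% intervals are not adjusted for multiple genes. DESeq2 1.42.0, limma-voom, other scalings and filters, a replicate block and leaving out libraries were alternatives. The fit was tested on simulated data. Symbols, exon lengths and sites came from TAIR10.1 (RefSeq). Sites were ungapped matches of the 21-nt microRNAs. Members and lists were chosen with earlier results of these data known. Of the listed symbols 2 were not paired with their locus and dropped. Named genes were the 6 members, THO2, and in each pathway list all tested genes up to 6, otherwise the 4 with the smallest p, plus the 3 genes most like the member with the smallest p; marker lists are given by their sums; STM, KNAT1, CASP1, CASP2 and untested genes were named after their values were seen.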

Additional observations from a re-analysis of the deposited data

How the results depend on the processing

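Of the 6 genes 0 were called under any alternative. AP2, TOE1 and TOE3 kept their direction in all 13 alternatives, with TOE3 between 0.63 and 0.83 and its adjusted p between 0.209 and 0.547. SMZ turned to 0.0036 with library totals, and ran from -0.37 to 0.39 with 1 library left out. SNZ ran from -0.27 to 0.58 and TOE2 from -0.0044 to 0.51 with 1 library left out; the cause was not tested. An arm left with 1 library was assumed to vary like the other.

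Over all genes edgeR called 2. DESeq2 called 560, limma-voom 1, and edgeR without a low-count filter 59. With 1 library left out the count ran from 0, without either Col-LUC replicate, to 710 without tho2-8 replicate 1, and was 115 without tho2-8 replicate 2. DESeq2 called 2 RAV genes, 1 TOE-regulated gene and 1 root marker, CASP1. With 1 library left out, calls ran from 0 to 1 in the RAV, the TOE-regulated and the AP2-lineage list (AIL7, without tho2-8 replicate 1). Without that library the edgeR log2 fold changes were -2 for CASP1 and -2.09 for CASP2, both root markers, and 1.02 for the meristem marker KNAT1. Each of these values rests on 1 mutant library.

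The labels do not say that replicate numbers mark shared batches. Deviations of same-numbered libraries correlated at -0.124. With a replicate block edgeR called 2 genes and 0 of the 6, and with the numbers crossed, an alternative added after seeing the data, 537 genes, 2 RAV genes and 0 of the 6.

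With up to 2 mismatches 4 genes had a miR172 site, and with up to 5 mismatches 571. At 43 to 161 counts per library, changes of SMZ, SNZ and TOE3 are measured less precisely than those of TOE1, as their intervals show.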

Other observations

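The 3 genes whose log2 CPM followed TOE3 most closely over the 4 libraries were TOC64-III (AT3G17970), AT1G67190 and TRZ4 (AT3G16260), with Pearson r of 0.99997, 0.9999 and 0.99985. Among 18663 genes compared, 248 had an r of at least 0.99, which 4 points make easy to reach, so this is a description only. AT1G67190 measured 11.4 and 12.8 CPM in Col-LUC against 20 and 18.4 CPM in tho2-8, a log2 fold change of 0.67 ± 0.19. TOC64-III and TRZ4 stood at 0.30 ± 0.14 and 0.15 ± 0.14 on the same scale. edgeR called none of these 3 (adjusted p = 0.356, 0.211 and 0.65 for TOC64-III, AT1G67190 and TRZ4).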
